A study of Mus musculus with 18 samples.

Results

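The 32 genes described here carry out the synthesis of triglycerides and phospholipids and the breakdown of stored triglycerides. They were taken from a list of names. The rule held no measured value, but the list was chosen with earlier results of these data known. The members are 4 acyl-CoA synthetases, 3 glycerol-3-phosphate acyltransferases, 5 lysophosphatidic acid acyltransferases, 3 lipins and 2 diacylglycerol acyltransferases. The others are 8 genes that attach phospholipid head groups, 3 lysophospholipid acyltransferases and 4 lipolysis genes. All 32 were found among the 26165 genes counted in bone marrow-derived macrophages (BMDM) and among the 26149 genes counted in skin wound macrophages. Enough counts for a test were present for 31 of them in BMDM and for all 32 in skin.

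Gene counts from RNA sequencing of total RNA were compared between mice with the T166A form of PPARg, in which alanine takes the place of a threonine, and wild-type (WT) mice, which the labels of the BMDM name as C57BL/6J. The title of the study asks how phosphorylation of PPARg at T166 relates to lipid synthesis in macrophages during tissue repair. T166A BMDM gave 3 libraries and WT BMDM gave 3, each grown from marrow of femur and tibia for 7 days with 50 ng/ml M-CSF, the growth factor that drives macrophage differentiation. T166A skin gave 6 libraries and WT skin gave 6, all from dorsal skin removed 6 days after injury, digested with enzymes and passed over magnetic beads against F4/80, a macrophage surface protein. Of the BMDM, batch B1 held replicates 1 and 2 of each genotype, and batch B2 held replicate 3. The skin libraries carry no batch label, and neither age nor sex is stated for the mice. The mutation is labelled only as a genotype of the mouse, with no cell type to which it is limited. Whether replicates were separate mice or cultures is not clear from the labels, and the p-values then measure no more than the spread among these libraries. The extraction text speaks of adipocytes, whereas the cell type labels name macrophages.

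In the glycerol phosphate pathway, acyl-CoA synthetases activate fatty acids, acyltransferases add them in turn to glycerol-3-phosphate, and lipins remove the phosphate to give diacylglycerol. Diacylglycerol acyltransferases turn diacylglycerol into triglyceride, which is stored in lipid droplets, while the choline and ethanolamine branches turn it into the main membrane phospholipids. Lipases release the stored fatty acids again. PPARg is a fatty acid-sensing nuclear receptor that drives fat storage in adipocytes and is also active in macrophages.

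Depth was 40072513 to 44152639 gene counts per library in BMDM and 29357354 to 38774475 in skin. Levels are given as counts per 1000000 (CPM) scaled by TMM factors, a correction for differences in library composition, and each source was scaled apart. Pparg itself averaged 57.7 ± 3.12 CPM in T166A BMDM and 58.4 ± 3.55 CPM in WT BMDM (SD, n = 3 each). In skin it averaged 24.5 ± 3.34 CPM in T166A and 28.0 ± 1.27 CPM in WT (SD, n = 6 each), with an edgeR adjusted p of 0.0778, and of 0.0263 (log2 fold change -0.24) without T166A replicate 3. Gene counts cannot show a point mutation, so these levels do not check the genotype labels.

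Macrophage markers were present in every library, but the skin libraries also held markers of other cells, and several of these differed between the genotypes. The 10 adipocyte markers summed to 70.7 to 111 CPM in T166A skin and 20.5 to 36.0 CPM in WT skin, with no overlap, and 5 of the 8 that could be tested were called higher and 1 lower. The fat hormone Adipoq averaged 9.90 ± 2.29 CPM in T166A skin and 0.916 ± 0.375 CPM in WT skin (SD, n = 6 each). The 3 brown adipocyte markers summed to 18.4 to 45.4 CPM in T166A skin and 3.41 to 5.79 CPM in WT skin, and 2 of them were called higher, among them Ucp1 at 22.7 ± 11.3 CPM in T166A and 2.27 ± 0.562 CPM in WT (SD, n = 6 each). The 10 macrophage markers summed to 12140 to 13905 CPM in T166A skin and 14247 to 17223 CPM in WT skin, and 7 of them were called lower. Their median log2 fold change was -0.31, and all 10 estimates were negative. Skeletal muscle markers were lower in 6 of 6, at 25.6 to 35.9 CPM in T166A skin and 57.8 to 82.5 CPM in WT skin. Endothelial markers were higher in 4 of 5, at 1134 to 1626 CPM in T166A skin and 880 to 1219 CPM in WT skin. Keratinocyte markers summed to 163 to 297 CPM in T166A skin and 176 to 366 CPM in WT skin, with 1 of 8 called, lower. Sebocyte markers summed to 187 to 226 CPM in T166A skin and 215 to 244 CPM in WT skin. Of the 6, Awat1 was called higher and Soat1 lower, with 3 estimates positive and 3 negative. Soat1 made up most of these sums, at 171 CPM on average in T166A skin and 205 CPM in WT skin. It was also at 445 CPM in T166A BMDM and 433 CPM in WT BMDM, so the sums are not particular to sebocytes. Elovl4 averaged 35.2 CPM in T166A skin and 17.8 CPM in WT skin and was not called. Fibroblast markers summed to 5978 to 11095 CPM in T166A skin and 7119 to 10970 CPM in WT skin, with 0 of 7 called. Of 4 neutrophil markers tested in skin, S100a8 and S100a9 were called lower, and all 7 tested in BMDM had a negative estimate with none called. In BMDM, the adipocyte markers summed to 0 to 0.334 CPM in T166A and 0.338 to 0.557 CPM in WT, with Adipoq at 0 in all 6 libraries. In these bulk samples, fewer cells of a type and less RNA per cell cannot be told apart.

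In skin, 16 of the 32 genes (50%) differed between the genotypes at an adjusted p under 0.05 in edgeR, 8 of them higher in T166A and 8 lower. Over all 15473 genes tested in skin, 25.9% were called, 12.7% higher and 13.2% lower. The median log2 fold change of the 32 genes was 0.03, against 0.01 over all genes tested. The calls in both directions were spread over the steps of the pathway: higher and lower members stood side by side among the acyl-CoA synthetases, the lysophosphatidic acid acyltransferases, the lipins, the head group genes and the lipolysis genes. Without TMM factors all skin log2 fold changes moved up by a median of 0.0864, and the share of higher genes among all skin calls was 72.0%, against 48.9% with them. On that scale 16 members were called as well, 13 higher and 3 lower. Of the 8 lower members, Acsl3, Pcyt1a and Chka kept their call on that scale, and Abhd5, Agpat4, Dgat1, Lpcat2 and Lpin2 lost it with no change of sign. With TMM factors, the genes that lost it had log2 fold changes of -0.16 to -0.21. The median of the 10 macrophage markers in skin was -0.31. The part of these markers in the falls was not tested.

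In BMDM, 0 of the 31 genes tested passed in edgeR, and DESeq2 and limma-voom also called 0. Of all 13139 genes tested in BMDM, 0.0685% were called, 0.0609% higher and 0.00761% lower. Acsl3 and Mgll had an unadjusted p under 0.05, and the lowest adjusted p of edgeR among the members was 0.358. The median log2 fold change was 0.03, against -0.02 over all genes tested, with 17 members positive and 14 negative. The variation between replicates that edgeR estimated was larger in BMDM (coefficient 0.279) than in skin (0.133), and the BMDM groups were smaller. This variation was not divided into biological and technical parts. Of the 31 members tested in both sources, 15 had the same sign in both.

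**Figure D1:**
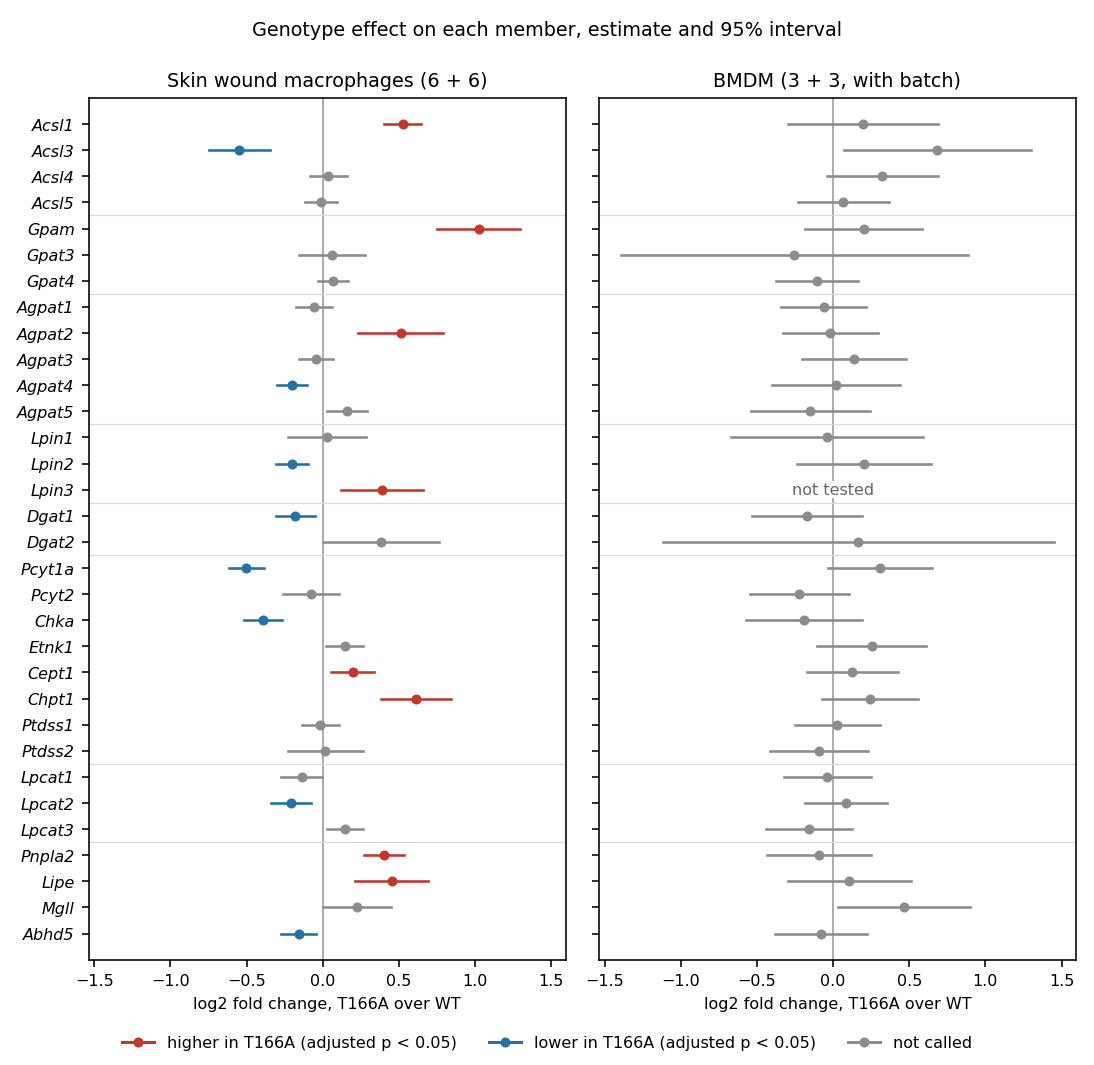
Log2 fold change of T166A over WT (horizontal axis) for each of the 32 genes (vertical axis, grouped by role) in skin (left, 6 + 6 libraries) and BMDM (right, 3 + 3 libraries), with points for the edgeR estimate and lines for the 95% interval. In skin 8 genes were called higher and 8 lower (13 higher and 3 lower without TMM factors), and in BMDM no gene was called and the intervals are wider.

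Acyl-CoA synthetases moved in opposite directions in skin. Acsl1, which activates long-chain fatty acids and is abundant in fat and macrophages, was at 61.7 CPM in the lowest, 65.0 at the median and 71.6 in the highest T166A skin library, against 42.3, 44.7 and 49.6 CPM in WT. Every T166A library stood above every WT library. Its log2 fold change was 0.52 with a standard error (SE) of 0.06, a 1.44-fold higher level (edgeR adjusted p = 7.67e-07). Acsl3, a synthetase of the endoplasmic reticulum and of growing lipid droplets, was at 14.7, 16.6 and 19.2 CPM in T166A skin (lowest, median and highest) and at 18.9, 24.9 and 28.5 CPM in WT. It fell by 0.55 on the log2 scale (SE 0.10, edgeR adjusted p = 0.00018), with the highest T166A library just above the lowest WT library. Acsl4, which prefers arachidonic acid, and Acsl5 did not pass, at 165.7 ± 16.6 and 93.5 ± 4.65 CPM in T166A skin and 162 ± 5.83 and 94.4 ± 4.05 CPM in WT (SD, n = 6 each).

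The stretches just before the starts of these genes are shown for the synthetases of opposite direction, as RefSeq gives them on GRCm38.p6. Both genes lie on the plus strand, Acsl1 at chr8:46471037-46536051 and Acsl3 at chr1:78657825-78707743, and the stretches end at the base before the start. Capitals mark a CCAAT box, found in Acsl3 at bases -15 to -11 from the start.
Acsl1 chr8:46470787-46471036: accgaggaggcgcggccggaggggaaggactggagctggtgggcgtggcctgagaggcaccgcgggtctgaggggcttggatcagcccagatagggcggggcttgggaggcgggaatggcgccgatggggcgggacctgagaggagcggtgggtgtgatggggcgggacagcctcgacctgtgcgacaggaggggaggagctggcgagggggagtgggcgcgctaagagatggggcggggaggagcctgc
Acsl3 chr1:78657575-78657824: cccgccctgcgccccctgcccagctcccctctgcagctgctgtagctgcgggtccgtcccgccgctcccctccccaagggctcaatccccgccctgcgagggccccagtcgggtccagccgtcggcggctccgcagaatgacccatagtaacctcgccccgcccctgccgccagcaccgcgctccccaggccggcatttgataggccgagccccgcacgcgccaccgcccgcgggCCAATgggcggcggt
RefSeq windows were available for 26 of the 32 members, 1 for each member at its most upstream start. The windows of all genes were not reduced to 1 per gene. CCAAT, searched on both strands, was in 9 of these 26 windows (34.6%) and in 33.8% of all 32851 windows of that length. Of the 9 members, 2 were called higher and 4 lower in skin. The half-site AGGTCA, which nuclear receptors bind, was in 2 of 26 (7.69%, Abhd5 and Lpin1) against 14.0% of all windows. The direct repeat of that half-site with 1 base between the copies, the form that PPAR and RXR pairs bind, was in 0 of 26 against 0.0335%. A match or its absence describes only the letters of these 250 bases.

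Gpam, the mitochondrial enzyme that starts the pathway on glycerol-3-phosphate, showed the largest fold change of the 32 genes in skin. It was at 6.65 CPM in the lowest, 8.24 at the median and 10.5 in the highest T166A skin library, against 3.07, 4.20 and 5.10 CPM in WT. The genotypes did not overlap, and the level was 2.03-fold higher in T166A (log2 fold change 1.02, SE 0.13, edgeR adjusted p = 4.38e-06). Gpat3 and Gpat4, which do the same step in the endoplasmic reticulum, did not pass: Gpat3 averaged 13.7 ± 2.46 CPM in T166A skin and 13.2 ± 1.15 CPM in WT, and Gpat4 83.1 ± 3.05 and 79.3 ± 3.05 CPM (SD, n = 6 each). Their 95% intervals on the log2 scale were -0.16 to 0.28 for Gpat3 and -0.03 to 0.17 for Gpat4.

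Of the lysophosphatidic acid acyltransferases, which add the second fatty acid, Agpat2 rose and Agpat4 fell in T166A skin. Agpat2, the form needed for normal fat tissue, was at 12.6, 17.6 and 24.3 CPM in T166A skin (lowest, median and highest) and at 11.1, 12.1 and 14.1 CPM in WT. The ranges overlapped, and the log2 fold change was 0.51 (SE 0.13, edgeR adjusted p = 0.00774). Agpat4 was at 75.9, 78.1 and 82.6 CPM in T166A skin and at 86.8, 91.6 and 94.0 CPM in WT, without overlap. Its change was small, a fall by 0.20 on the log2 scale (SE 0.05, edgeR adjusted p = 0.00224). Agpat1, Agpat3 and Agpat5 were not called, with log2 fold changes of -0.06, -0.04 and 0.16. Agpat5 came nearest to the threshold (edgeR adjusted p = 0.0674).

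Lipins, the phosphatidic acid phosphatases, were split in the same way. Lpin2, a form abundant in macrophages, was at 261, 275 and 288 CPM in T166A skin (lowest, median and highest) and at 292, 315 and 344 CPM in WT. All T166A libraries were below all WT libraries, by 0.20 on the log2 scale (log2 fold change -0.20, SE 0.05, edgeR adjusted p = 0.0039). Lpin3 was at 5.61, 6.25 and 8.48 CPM in T166A skin and at 4.22, 4.87 and 6.16 CPM in WT, with overlapping ranges and a rise by 0.39 on the log2 scale (SE 0.13, edgeR adjusted p = 0.0288). That call was lost when any of T166A replicates 3 and 5 or WT replicates 1, 3, 5 and 6 was left out (edgeR adjusted p 0.0514 to 0.0838). In BMDM, Lpin3 was at 0.045 CPM in T166A replicate 1 and at 0 in the other 5 libraries, where a count of 0 allows up to 3 counts, or 0.0689 to 0.0779 CPM. Lpin1 averaged 16.0 ± 3.48 CPM in T166A skin and 15.6 ± 1.26 CPM in WT (SD, n = 6 each) and was not called.

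The final step of triglyceride synthesis is shared by Dgat1 and Dgat2, unrelated enzymes with the same activity. Dgat1 was at 47.3, 50.4 and 59.8 CPM in T166A skin (lowest, median and highest) and at 57.9, 59.9 and 61.4 CPM in WT. It fell by 0.18 on the log2 scale (SE 0.06, edgeR adjusted p = 0.0365). The call was lost without any of T166A replicates 1, 2, 4 and 6 or WT replicates 2, 4, 5 and 6 (edgeR adjusted p 0.0567 to 0.0996). Dgat2 averaged 19.7 ± 5.46 CPM in T166A skin and 15.1 ± 2.59 CPM in WT (SD, n = 6 each), 0.38 on the log2 scale (SE 0.17), and was not called (edgeR adjusted p = 0.131).

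The choline branch held the clearest falls. Pcyt1a encodes the rate-limiting enzyme of phosphatidylcholine synthesis, which activates choline phosphate. It was at 231 CPM in the lowest, 262 at the median and 279.8 in the highest T166A skin library, against 338, 378 and 394 CPM in WT. No T166A library reached the lowest WT library, and Pcyt1a fell by 0.50 on the log2 scale (SE 0.06, edgeR adjusted p = 6.54e-07), the smallest adjusted p of the 32 genes in skin. Chka, the choline kinase of the step before it, was at 31.1, 31.9 and 35.7 CPM in T166A skin and at 39.2, 42.8 and 46.5 CPM in WT. It also fell without overlap, by 0.39 on the log2 scale (SE 0.06, edgeR adjusted p = 3.78e-05).

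Pcyt1a lies on the plus strand at chr16:32430921-32475065, and the stretch before its RefSeq start is shown for the member with the smallest adjusted p, with capitals for a sterol regulatory element at bases -116 to -108.
Pcyt1a chr16:32430671-32430920: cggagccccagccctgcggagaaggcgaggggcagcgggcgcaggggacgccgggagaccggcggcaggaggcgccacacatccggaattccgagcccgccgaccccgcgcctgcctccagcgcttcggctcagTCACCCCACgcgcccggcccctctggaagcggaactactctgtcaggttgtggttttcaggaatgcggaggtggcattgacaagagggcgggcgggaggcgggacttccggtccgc
The element TCACCCCAC, searched on both strands, was in 1 of the 26 member windows (3.85%) and in 0.496% of all windows, which were not reduced to 1 per gene. This match describes only the letters of the window, and its use by the cell was not tested.

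The enzymes that follow in the branch went the other way. Chpt1, which joins the activated choline to diacylglycerol, was at 16.6, 18.6 and 26.9 CPM in T166A skin (lowest, median and highest) and at 10.7, 12.6 and 15.5 CPM in WT. The ranges did not overlap, and Chpt1 was 1.53-fold higher (log2 fold change 0.61, SE 0.11, edgeR adjusted p = 0.000303). Cept1, which makes both phosphatidylcholine and phosphatidylethanolamine, was at 47.3, 60.4 and 62.2 CPM in T166A skin and at 46.7, 50.0 and 54.1 CPM in WT, 0.20 higher on the log2 scale (SE 0.07, edgeR adjusted p = 0.0352). Its call was lost without any of T166A replicates 1, 2, 4 and 6 or WT replicates 2, 3, 4 and 5 (edgeR adjusted p 0.0554 to 0.0905). Of the ethanolamine genes, the kinase Etnk1 averaged 137 ± 8.57 CPM in T166A skin and 124 ± 10.9 CPM in WT, and Pcyt2, which activates the product of that kinase, 13.2 ± 1.21 and 13.9 ± 1.58 CPM (SD, n = 6 each). Neither was called, and neither were the phosphatidylserine synthases Ptdss1 and Ptdss2, whose log2 fold changes were -0.02 (SE 0.06) and 0.02 (SE 0.12).

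Lysophospholipid acyltransferases remodel the fatty acids of finished phospholipids. Lpcat2, which also makes the inflammatory lipid platelet-activating factor, was at 32.9, 37.3 and 41.1 CPM in T166A skin (lowest, median and highest) and at 40.5, 42.2 and 45.2 CPM in WT. It fell by 0.21 on the log2 scale (SE 0.06, edgeR adjusted p = 0.0166), with a narrow overlap. Lpcat1 averaged 37.7 ± 2.79 CPM in T166A skin and 41.5 ± 2.91 CPM in WT, and Lpcat3, which brings in polyunsaturated fatty acids, 59.9 ± 3.13 and 54.1 ± 3.70 CPM (SD, n = 6 each). Neither passed in skin, with edgeR adjusted p values of 0.119 and 0.0632.

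Among the lipolysis genes, Pnpla2 and Lipe rose and Abhd5 fell in T166A skin. Pnpla2, the adipose triglyceride lipase that makes the first cut in a triglyceride, was at 117, 132 and 152 CPM in T166A skin (lowest, median and highest) and at 95.7, 99.7 and 108 CPM in WT. Every T166A library was above every WT library, and the level was 1.32-fold higher (log2 fold change 0.40, SE 0.06, edgeR adjusted p = 4.25e-05). Lipe, the hormone-sensitive lipase that acts on diacylglycerol, was at 20.9, 26.0 and 30.3 CPM in T166A skin and at 16.2, 17.7 and 25.5 CPM in WT, 0.45 higher on the log2 scale (SE 0.11, edgeR adjusted p = 0.00652). Abhd5, the protein that switches Pnpla2 on, was at 43.7, 48.0 and 51.7 CPM in T166A skin and at 50.7, 54.1 and 55.6 CPM in WT. It fell by 0.16 on the log2 scale (SE 0.06, edgeR adjusted p = 0.0404), and the call held in only 3 of the 12 fits that left out 1 skin library (without T166A replicates 1 and 4 and WT replicate 2). Without any of the other 9, its edgeR adjusted p was 0.0565 to 0.0972. Mgll, the monoacylglycerol lipase, averaged 78.4 ± 13.0 CPM in T166A skin and 67.1 ± 7.58 CPM in WT (SD, n = 6 each), 0.22 on the log2 scale (SE 0.10, edgeR adjusted p = 0.132). Without T166A replicate 1 or WT replicate 3 Mgll passed, at edgeR adjusted p values of 0.0134 to 0.032.

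The 2 genotypes did not overlap in skin for 8 of the 32 members, against 12.1% of all 15473 genes tested. The T166A libraries were all above the WT libraries for Acsl1, Gpam, Chpt1 and Pnpla2, and all below them for Agpat4, Lpin2, Pcyt1a and Chka.

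**Figure D2:**
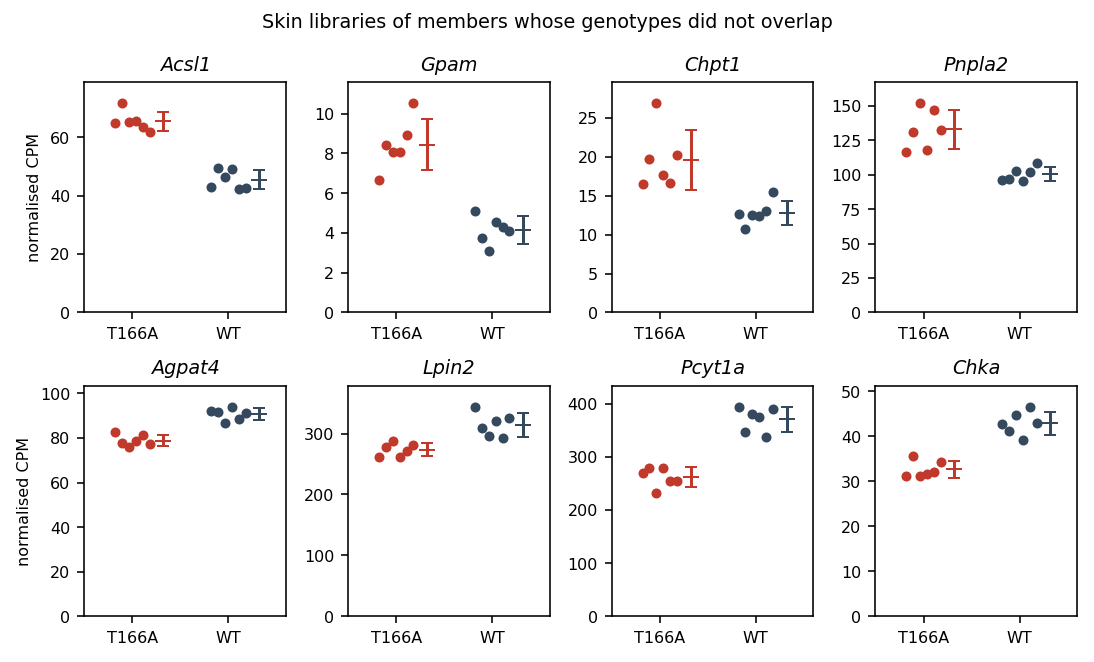
TMM-scaled CPM (vertical axes, from 0) of the 8 members whose skin genotypes did not overlap, with 1 point per library, 6 for T166A on the left and 6 for WT on the right, and bars for the mean and SD. Pcyt1a, for example, was at 231 to 279.8 CPM in T166A and 338 to 394 CPM in WT, and 1 T166A library of Chpt1 stood at 26.9 CPM.

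The adipocyte markers moved with genotype in skin, as given above, and the calls were therefore also computed with the mean log2 level of these markers in each library as a covariate. That score ran from 0.019 to 1.08 in T166A skin and from -0.819 to 0.0368 in WT skin, so that it nearly separated the genotypes itself. With it, 5 members were called in edgeR, 2 higher and 3 lower, and the calls over all genes dropped to 1162, of which 403 were higher and 759 lower. Gpam (log2 fold change 1.06, SE 0.27, edgeR adjusted p = 0.0165) and Acsl1 (0.50, SE 0.11, edgeR adjusted p = 0.00727) stayed higher. Pcyt1a fell by 0.41 (SE 0.11, edgeR adjusted p = 0.0151) and Chka by 0.48 (SE 0.12, edgeR adjusted p = 0.0133) on the log2 scale. Mgll, at -0.36 on the log2 scale (SE 0.11, edgeR adjusted p = 0.0412), was called lower only with this covariate among the settings run. The other 12 of the 16 members lost their call, and for Agpat2 and Lipe the estimate turned, to -0.067 (SE 0.22) and -0.17 (SE 0.14). Dgat2, called neither with nor without the covariate, turned further, to -0.44 (SE 0.21), against 0.38 without it. The SE also grew, for Gpam from 0.13 without the covariate to 0.27 with it, so a lost call does not by itself mean a smaller difference. How much of each difference goes with adipocyte RNA and how much with genotype was not tested apart from this fit. With keratinocyte and fibroblast markers as covariates, 20 members were called, 12 higher and 8 lower, and the calls over all genes also went up, to 4868 of 15473.

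**Figure D3:**
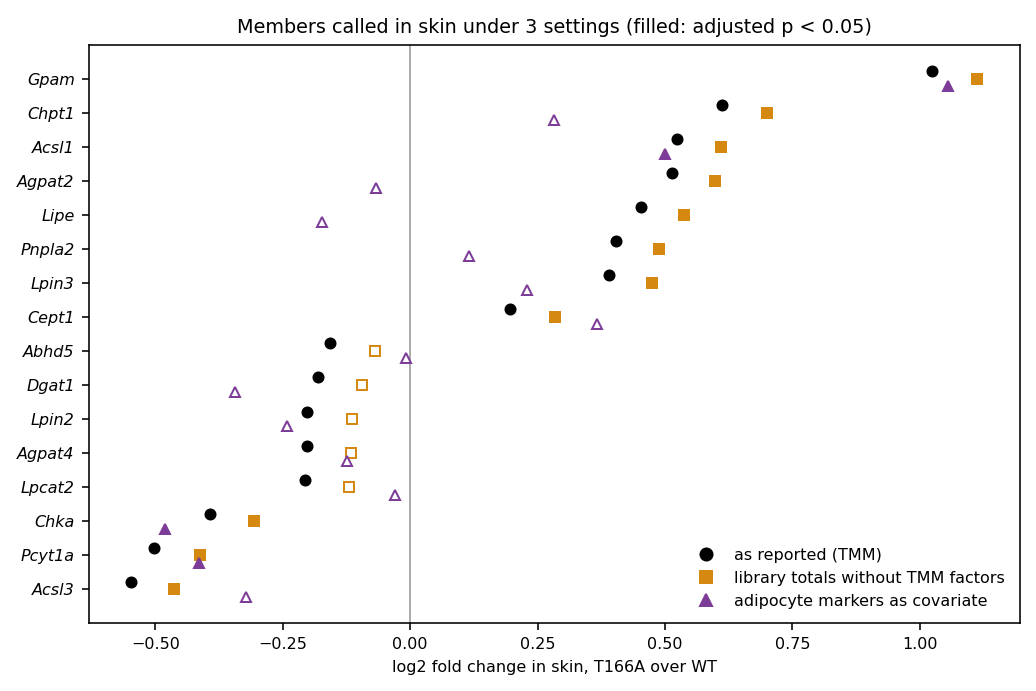
Log2 fold change of T166A over WT in skin (horizontal axis) for the 16 members called there (vertical axis), as reported, without TMM factors and with the adipocyte markers as a covariate, with filled symbols for an adjusted p under 0.05 in edgeR. Gpam, Acsl1, Chka and Pcyt1a were called in all 3 settings, 5 of the lower members lost their call without TMM factors, and 12 of the 16 lost it with the covariate.

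In BMDM the members with the smallest p were Acsl3, Mgll, Pcyt1a, Acsl4 and Chpt1, all with positive estimates and none called. Acsl3 was at 8.26, 11.0 and 17.3 CPM in T166A replicates 1, 2 and 3, against 6.50, 8.66 and 6.68 CPM in WT. The T166A library of batch B2 stood far above the others: on the log2 scale the difference was 0.68 over both batches (SE 0.27, edgeR adjusted p = 0.358), with 0.34 for B1 and 1.37 for B2. Without T166A replicate 3 it was 0.34 (SE 0.27, edgeR adjusted p = 0.536). The 7 fibroblast markers summed to 410.6 CPM in that library, 7.41 and 10.1 CPM in T166A replicates 1 and 2, and 4.23 to 43.8 CPM in WT BMDM. The part of these markers in the Acsl3 level was not tested.

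Mgll was at 11.9, 12.1 and 4.82 CPM in T166A BMDM and at 8.97, 8.61 and 3.40 CPM in WT, with replicate 3 lowest in both genotypes and log2 fold changes of 0.45 in B1 and 0.49 in B2 (0.47 over both, SE 0.19, edgeR adjusted p = 0.365). Pcyt1a was at 175, 150.0 and 98.2 CPM in T166A BMDM and at 128, 107 and 99.2 CPM in WT, and its log2 fold change of 0.47 in B1 was not seen in B2 (-0.02). Over both batches it was 0.31 (SE 0.15, edgeR adjusted p = 0.439). Acsl4 was at 48.3, 60.2 and 47.2 CPM in T166A BMDM and at 35.4, 46.5 and 42.3 CPM in WT. All T166A libraries of Acsl4 stood above all WT libraries, by 0.32 on the log2 scale (SE 0.16, edgeR adjusted p = 0.442). Chpt1 was at 24.6, 25.1 and 27.9 CPM in T166A BMDM and at 19.1, 21.5 and 25.1 CPM in WT (log2 fold change 0.24, SE 0.14, edgeR adjusted p = 0.5).

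Acsl4 and Pcyt2, which was at 19.6 to 23.0 CPM in T166A and 24.3 to 25.7 CPM in WT, were the members without overlap in BMDM, 2 of 31 tested members against 13.6% of all genes tested. For 17 of the 31 members the sign differed between B1 and B2, and the members' median on the log2 scale was 0.11 for B1 and -0.09 for B2. Lpin1 was the member with the widest split in sign, at 0.41 in B1 and -0.99 in B2. Gpat3 and Dgat2 were near the low end, at 1.54 ± 1.34 and 1.49 ± 0.225 CPM in T166A BMDM and 1.55 ± 0.705 and 1.32 ± 0.786 CPM in WT (SD, n = 3 each). Their 95% intervals on the log2 scale were the widest of the 31, from -1.39 to 0.89 and from -1.12 to 1.45, and the T166A libraries of Gpat3 alone ran from 0.585 to 3.08 CPM. Across 12700 genes the BMDM log2 fold change went with transcript length (Spearman 0.462, against 0.0558 in skin). With this trend removed from each library, 0 members were called in BMDM as before.

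**Figure D4:**
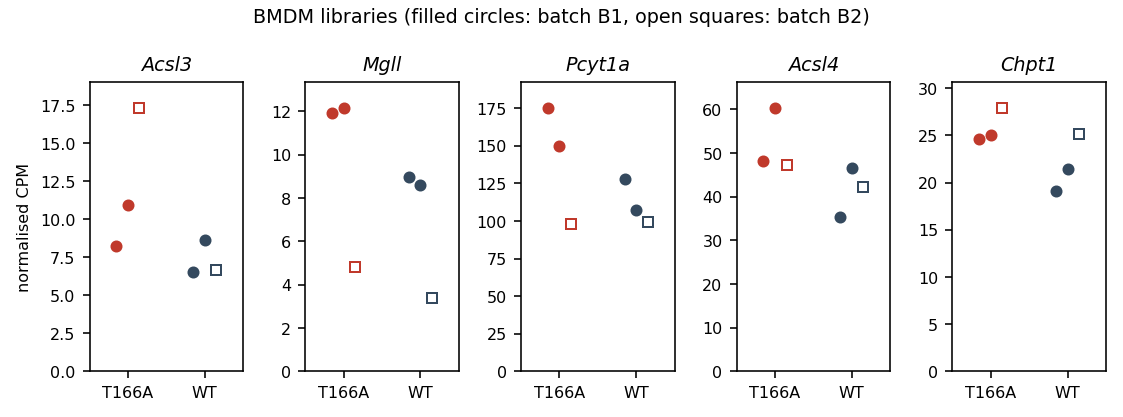
TMM-scaled CPM (vertical axes, from 0) of the 5 members with the smallest p in BMDM, with 1 point per library, T166A on the left and WT on the right, filled circles for batch B1 and open squares for batch B2. The B2 library of T166A is the highest for Acsl3 (17.3 CPM) and the lowest T166A library for Pcyt1a (98.2 CPM), and none of the 5 was called.

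The difference between the genotype effects in skin and in BMDM was tested directly over all 18 libraries. It was called for 5 of the 32 members in edgeR, 3 with a higher and 2 with a lower effect in skin, against 14.3% of the 16586 genes tested (6.16% higher and 8.13% lower). The 32 include Lpin3, which had too few counts for a test in BMDM alone. Its log2 difference was -2.10 (SE 1.22, edgeR adjusted p = 0.329). Gpam had a log2 difference (skin minus BMDM) of 0.86 (SE 0.21, edgeR adjusted p = 0.0113). In BMDM it was at 15.4, 13.5 and 11.6 CPM in T166A and at 12.0, 12.4 and 10.8 CPM in WT, a log2 fold change of 0.20 with a 95% interval of -0.19 to 0.59. Pcyt1a, which was lower in T166A skin, had a difference of -0.77 (SE 0.13, edgeR adjusted p = 0.0005), and its BMDM interval ran from -0.04 to 0.65.

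For Acsl3 the difference was -1.19 (SE 0.25, edgeR adjusted p = 0.0033), and without BMDM T166A replicate 3 it was -0.82 (SE 0.23, edgeR adjusted p = 0.0146). For Pnpla2 it was 0.53 (SE 0.14, edgeR adjusted p = 0.0127). Pnpla2 was at 152, 133 and 85.3 CPM in T166A BMDM and at 135, 130.1 and 119.6 CPM in WT, with the B2 library of T166A the lowest. Without T166A or WT replicate 3 of BMDM its difference was 0.37 and no longer called (edgeR adjusted p = 0.0586 and 0.059). Batch B2 held only these libraries, so either fit leaves the BMDM effect to batch B1, and they are not separate checks. For Lpcat3 the difference was 0.34 (SE 0.10, edgeR adjusted p = 0.0328), with 74.0, 66.9 and 55.8 CPM in T166A BMDM and 76.1, 75.1 and 67.4 CPM in WT. That call was lost without BMDM T166A replicate 2 or 3 or WT replicate 3 (edgeR adjusted p 0.0664 to 0.0885), with RLE size factors (0.0763) and with the trend over transcript length removed (0.0634). With that trend removed, 6 members were called: Agpat5 (log2 difference 0.79, edgeR adjusted p = 0.00555) and Gpat4 (0.47, edgeR adjusted p = 0.00224) then passed, against 0.35 and 0.21 as reported. The single fit gives both sources 1 estimate of spread, although BMDM varied more. When the separate edgeR fits were compared instead, only Gpam (adjusted p = 0.0468) and Pcyt1a (adjusted p = 0.0316) passed, and Acsl3 (0.0502), Pnpla2 (0.13) and Lpcat3 (0.242) did not.

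Apart from genotype, the members differed between the cell sources, as mean levels on scales set apart for each source and with no test. Mgll averaged 67.1 CPM in WT skin and 6.99 CPM in WT BMDM, Dgat2 15.1 and 1.32 CPM, and Gpat3 13.2 and 1.55 CPM. In the other direction, Gpam averaged 4.14 CPM in WT skin and 11.7 CPM in WT BMDM, Agpat2 12.4 and 48.3 CPM, and Ptdss2 8.05 and 25.7 CPM. These 6 genes were chosen after their values were seen.

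Of 46 further genes of the pathway, mostly lipid droplet proteins and enzymes of neighbouring steps, 41 were tested in skin, and 13 were called higher and 2 lower (36.6%, median log2 fold change 0.19), against 25.9% of all genes tested, with a median of 0.01. This list was also chosen with earlier results of these data known. The higher genes with the smallest adjusted p were droplet proteins typical of fat cells. Plin4 averaged 7.76 ± 1.56 CPM in T166A skin and 2.47 ± 0.561 CPM in WT, Cidea 8.58 ± 2.21 and 1.65 ± 0.613 CPM, Cidec 13.1 ± 3.67 and 2.28 ± 0.795 CPM, and Plin1 8.78 ± 3.52 and 1.18 ± 0.459 CPM (SD, n = 6 each). Their log2 fold changes were 1.65, 2.37, 2.53 and 2.88, with edgeR adjusted p values of 2.04e-07, 6.35e-07, 4.83e-06 and 1.49e-05. They rose together with the adipocyte markers given above, and the part of those markers in these changes was not tested. Plin2, the droplet coat protein of most cells including macrophages, went the other way, at 1541 ± 91.6 CPM in T166A skin and 1883 ± 124 CPM in WT (SD, n = 6 each, log2 fold change -0.29, SE 0.06, edgeR adjusted p = 0.000435). The other lower gene was Mboat7, which puts arachidonic acid into phosphatidylinositol, at 30.6 ± 2.78 CPM in T166A skin and 35.9 ± 1.50 CPM in WT (SD, n = 6 each, edgeR adjusted p = 0.0121). The part of the lower macrophage markers in the falls of Plin2 and Mboat7 was not tested. The remaining higher genes were Gpd1, Ces1d, Plin5, Plpp1, Plpp3, Cds2, Pnpla3, Abhd6 and Selenoi.

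In BMDM, 32 of these 46 genes were tested and 0 were called in edgeR, with 1 at an unadjusted p under 0.05 and a median log2 fold change of -0.14. That gene was Hilpda, an inhibitor of Pnpla2, which averaged 10.5 ± 2.11 CPM in T166A BMDM and 16.4 ± 2.47 CPM in WT (SD, n = 3 each, log2 fold change -0.64, SE 0.20, edgeR adjusted p = 0.263). By p, next in that direction were Gk, Pgs1 and Chkb, with log2 fold changes of -0.34, -0.24 and -0.23. In the other direction the smallest p were those of Pcyt1b, Cds2, Lpl and Gpd1l, with 0.78, 0.19, 0.12 and 0.09. Some genes with a larger p had larger changes, such as Gpd1 at -0.49 (SE 0.33) and Lpcat4 at 0.16 (SE 0.32).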

How the data were processed

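The authors deposited raw counts per RefSeq transcript, 1 table for each cell source, for which the submitters' processing notes name mm10, featureCounts (no version), HISAT2 2.2.1, cutadapt 4.4 and FastQC 0.12.1. No strand or multimapping setting is given there, so reads of overlapping genes may be shared. Of 45895 transcripts in BMDM and 45843 in skin, 45749 and 45697 were matched to genes by RefSeq accession and 29 in each by GENCODE. The 117 left over in each table (0.514% and 0.187% of counts) were not used. Several transcripts were listed for 8835 and 8821 genes, and each gene was given its transcript with the highest summed CPM. For Mgll the lowest of 4 transcripts held a small fraction of the highest. For most other members with several transcripts the counts were nearly equal, as for Gpam, where the lower of 2 held 0.999 of the higher in each source. Counts summed over transcripts came to 2.04 times those of the transcripts used, in BMDM and in skin, so summing counts many reads more than once. Gene coordinates are from RefSeq (GRCm38.p6, the build of mm10).

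Tests on the counts used edgeR 4.0.16 in R 4.3.3 (TMM, a filterByExpr minimum of 10 per library and 15 in total, robust quasi-likelihood F test, Benjamini-Hochberg adjustment over all genes, threshold 0.05), BMDM with batch as a term (3 residual degrees of freedom) and skin with genotype alone (10). The difference between sources was fitted over all 18 libraries with a term for B2, and also as the difference of the separate fits (Satterthwaite degrees of freedom). DESeq2 1.42.0 and limma 3.58.1 were alternatives. The scripts were tested on simulated counts. In BMDM, same-numbered libraries of both genotypes correlated by 0.201, 0.115 and 0.188 after the mean of each genotype was removed. These values include the batch that such libraries share. The labels state no pairing beyond the batch, and the reported BMDM fit took batch alone and did not pair the libraries. A block for the replicate number in BMDM, run as an alternative, left 0 members called. Limits for a count of 0 cover counting error only. Every member was named, with the lowest, median and highest library for those called in skin and values per library for the 5 smallest p in BMDM and for the called differences, and for further pathway genes the 4 smallest adjusted p in each direction. The members, lists and most alternatives were chosen with earlier results of these data known. The scaling without TMM factors was added after the data were seen.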

Additional observations from a re-analysis of the deposited data

Results flagged for a closer look

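Of 64 groups examined (each member in each skin genotype), 3 held a library far from the others, and chance gives about 1 in 20 groups. Chpt1 was at 26.9 CPM in T166A skin replicate 3, against 20.2 CPM in the nearest T166A library. Ptdss2 was at 10.8 CPM in T166A skin replicate 1, against 8.22 CPM in the nearest. Mgll was at 82.1 CPM in WT skin replicate 3, against 66.6 CPM in the nearest WT library. The adipocyte markers summed to 111 CPM in T166A skin replicate 3 and 36.0 CPM in WT skin replicate 3, the highest of each genotype. In T166A skin replicate 1, the library flagged for Ptdss2, they summed to 70.7 CPM, the lowest of that genotype. The part of these markers in the flagged values was not tested.

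The genotype effect differed between skin and BMDM for 5 of the 32 members in the single edgeR fit, a share near the 14.3% of all genes tested, with log2 differences (skin minus BMDM) of 0.86 for Gpam, 0.53 for Pnpla2, 0.34 for Lpcat3, -0.77 for Pcyt1a and -1.19 for Acsl3. Gpam and Pcyt1a also passed when the separate fits were compared.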

How the results depend on the processing

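No member was called in BMDM under the 18 alternatives run there. The BMDM count over all genes was 9 as reported, 400 with DESeq2, 132 with limma-voom, 105 without a filter, 14 with a minimum count of 50, 14 with the length trend removed together with a replicate block, 21 in batch B1 alone and 0 both with transcripts summed (1557 at an unadjusted p under 0.05) and without a batch term (929), and it was 0 to 18 without 1 library. In skin, 16 members were called by DESeq2, 17 by limma-voom, 15 without a filter and 15 with transcripts summed, and 13 to 16 without 1 library, with 3473 to 4179 genes over all. The adipocyte covariate left 5 members and 1162 genes, and turned Agpat2 to -0.067, Lipe to -0.17, Mgll to -0.36 and Dgat2 to -0.44. The cause was not tested. Gpam, Acsl1, Pcyt1a and Chka were called under all 24 skin alternatives. Acsl3, Agpat2, Chpt1, Pnpla2 and Lipe lost their call only under that covariate. Agpat5 passed without T166A replicate 5 (log2 fold change 0.20), Lpcat3 without T166A or WT replicate 5 (0.16 to 0.18), and Etnk1 without WT replicate 3 or 6 (0.17 to 0.18). Agpat5, Dgat2, Etnk1 and Mgll passed with keratinocyte and fibroblast covariates. In skin, same-numbered libraries correlated by -0.0459 to 0.0906 and were not taken as pairs. A replicate block called 19 members there, 11 higher and 8 lower, with Dgat2 (0.36), Etnk1 (0.15) and Mgll (0.21) added. For the difference between sources, the separate fits called 2 members and 312 genes; leaving out 1 BMDM library gave 4 to 7 members and 1823 to 3401 genes. Acsl1 passed there without T166A replicate 1 or WT replicate 2 (log2 difference 0.55), Agpat4 without WT replicate 2 (-0.37), and Agpat5 (0.56) and Lpin2 (-0.60) without T166A or WT replicate 3. The fits without T166A or WT replicate 3 both leave the BMDM effect to batch B1 and are not separate checks. With RLE size factors 4 members were called there, and with the length trend removed 6. Lpin3 had too few counts for a test in BMDM.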
